A study of Mus with 18 samples.

Results

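The genes described here are 9 complement components and receptors of the mouse: C1qa, C1qb and C1qc (the chains of C1q), C4b, C3, Cfb, Serping1, C3ar1 and C5ar1. They were chosen by gene symbol, and all 9 were found among the 21401 symbols of each of 2 expression tables, 1 from cultures labelled as C2C12 myoblasts and 1 from gastrocnemius muscle. Each table held 9 RNA-seq libraries, 3 control, 3 LPS and 3 LPS-MIC-1. LPS is lipopolysaccharide, a bacterial cell wall component that sets off inflammation. MIC-1 is moringa isothiocyanate-1, a compound isolated from moringa seeds.

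C2C12 is an established mouse myoblast line. Its control libraries were labelled as vehicle controls, its LPS libraries received LPS at 1 μg/mL, and its LPS-MIC-1 libraries received the same LPS with 10 μM MIC-1 for 24 h. The text of the study names a lower MIC-1 concentration for the sequenced cells than the labels do, so the dose is uncertain and the labelled one is given here. The muscle came from wild type male C57BL/6 mice. Control mice received vehicle, LPS mice received an intraperitoneal injection of 10 mg/kg LPS, and LPS-MIC-1 mice were gavaged daily with 80 mg/kg MIC-1 for 3 days before that injection, with muscle taken 16 h after LPS. No group in either table received MIC-1 without LPS. The comparisons address what LPS changed and what MIC-1 pretreatment or co-treatment changed on top of LPS.

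Complement is a cascade of plasma and tissue proteins that marks particles for uptake, recruits leukocytes and lyses membranes. C1q recognises bound antibody and dying cells and starts the classical pathway, which runs through C4 and C2 to C3. Factor B, encoded by Cfb, builds the alternative pathway convertase that amplifies C3 cleavage, whereas the C1 inhibitor, encoded by Serping1, blocks the proteases C1r and C1s. The released fragments C3a and C5a act on myeloid cells through the receptors C3ar1 and C5ar1. C1q and both receptors are typical products of macrophages, and liver is the main source of circulating C3 and factor B.

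The identity of the C2C12 libraries bears on every value from them. The sum of 16 macrophage genes, led by Lyz2 and Cd14, was 10317 to 10374 FPKM in the control libraries, 7152 to 7337 in the LPS libraries, and 276, 80.7 and 91.5 in LPS-MIC-1 replicates 1, 2 and 3. FPKM, the number of fragments scaled to transcript length and library size, is a level per length. The sum of 12 myogenic genes, led by Des and Cdh15, ran the other way, at 0.136 to 0.487 in control, 0.364 to 2.67 with LPS and 942 to 1201 with LPS-MIC-1, with 6 of them at 0 in all control and 5 in all LPS libraries. The myoblast factor Myod1 was at 0, 0 and 0.0293 FPKM in the control libraries and at 56.7, 49.5 and 55.7 in the LPS-MIC-1 libraries. The libraries labelled C2C12 control and C2C12 LPS therefore carried macrophage and not myogenic genes, so each comparison of LPS-MIC-1 with them also compared libraries of different cell type markers. Treatment and cell type cannot be told apart there. In such bulk RNA, fewer cells of a type and less RNA per cell cannot be told apart either.

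A gene was called higher or lower when limma gave an absolute log2 fold change above 1 and an adjusted p under 0.001 in the C2C12 table or under 0.05 in the muscle table. Of the 9 complement genes, 6 passed the filter on low values (a mean above 1 FPKM over 9 libraries) in each table. C1qa, C1qb and C4b were not tested in the C2C12 table, and C4b, C3ar1 and C5ar1 were not tested in muscle. In the C2C12 table Serping1 had a mean above 1 FPKM in the LPS-MIC-1 group alone and C1qc in the control group alone, and in muscle Cfb had one in the LPS-MIC-1 group alone. Those genes were admitted by the group where they were high. For C1qc in C2C12 and Cfb in muscle the adjusted p is therefore given from a fit that dropped the filter on mean FPKM. That fit, described below as without a filter, tested 15296 symbols of the C2C12 table and 15434 of the muscle table. Because it still left out part of the 21401 symbols, it does not exclude that 1 group admitted a gene. Serping1 in the C2C12 table entered that fit only through the LPS-MIC-1 group, so no p is given for Serping1 in that table. All libraries of each gene are shown in the plot of FPKM by group.

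**Figure D1:**
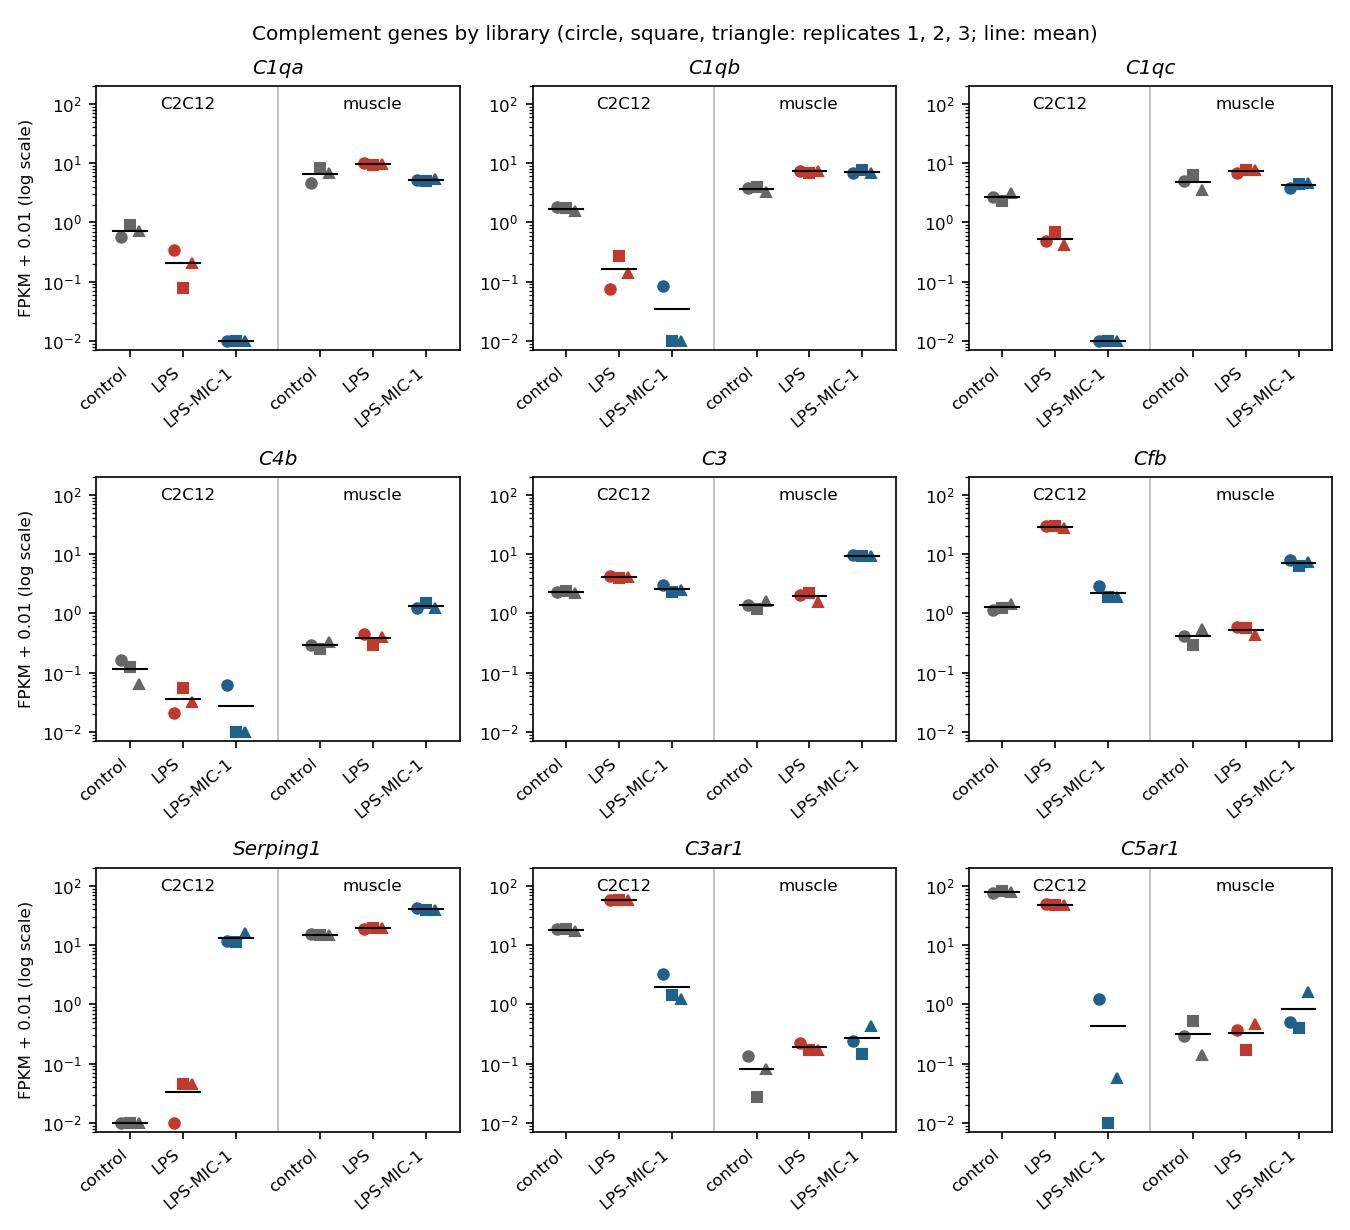
FPKM of the 9 complement genes in each of 18 libraries, plotted as FPKM + 0.01 on a log axis so that libraries listed at 0 sit at the bottom. Left of each panel are the C2C12 groups and right the muscle groups, circles, squares and triangles are replicates 1, 2 and 3, and the line is the mean. C5ar1 stood at 76.7 to 83.4 FPKM in the libraries labelled C2C12 control and at 1.24 or less in LPS-MIC-1, whereas Cfb, C3 and C4b were highest in the muscle LPS-MIC-1 group among the muscle groups.

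In the libraries labelled C2C12 control and LPS, the largest difference among the complement genes was in factor B. Cfb was at 1.14, 1.22 and 1.44 FPKM in control and at 30.1, 29.8 and 27.1 FPKM in LPS. The groups did not overlap, and the mean was 22.9-fold higher with LPS. Cfb rose by 4.42 on the log2(FPKM + 0.1) scale (SE 0.174, limma adjusted p = 3.66e-07). In the LPS-MIC-1 libraries Cfb was at 2.88, 1.86 and 1.91 FPKM, below every LPS library and above every control library. It fell by 3.68 against LPS (SE 0.174, limma adjusted p = 2.22e-07), and its difference from control, 0.74, was not called (limma adjusted p = 0.00428).

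The central component C3 differed less. C3 was at 2.33, 2.34 and 2.16 FPKM in C2C12 control, at 4.26, 3.98 and 4.08 with LPS and at 3.02, 2.26 and 2.45 with LPS-MIC-1. The LPS libraries were all above the others, while LPS-MIC-1 and control overlapped. The log2 differences were 0.82 for LPS against control (limma adjusted p = 0.000521) and -0.66 for LPS-MIC-1 against LPS (limma adjusted p = 0.0011), both under the fold threshold.

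The C1q chains, which form 1 protein, were lower in the LPS libraries than in control and at 0.0758 FPKM or less with LPS-MIC-1. C1qc was at 2.64, 2.32 and 3.13 FPKM in C2C12 control and at 0.473, 0.683 and 0.408 in LPS, and it was listed at 0 in all 3 LPS-MIC-1 libraries. It fell by 2.18 on the log2 scale between control and LPS (limma adjusted p = 4.43e-05 without a filter), and LPS-MIC-1 was lower against LPS (limma adjusted p = 5.55e-06 without a filter) and against control (limma adjusted p = 1.53e-07 without a filter). No fold is given against a group listed at 0, and the call against LPS was lost when 1 and not 0.1 was added to FPKM, with a log2 change of -0.60.

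C1qa and C1qb were under the filter but ran in parallel. C1qb was at 1.81, 1.73 and 1.55 FPKM in C2C12 control, at 0.0646, 0.261 and 0.130 with LPS and at 0.0758, 0 and 0 with LPS-MIC-1. C1qa was at 0.561, 0.887 and 0.712 FPKM in control and at 0.331, 0.0668 and 0.200 in LPS, and was listed at 0 in LPS-MIC-1. For both chains every control library stood above every LPS library, and the exact permutation test of 3 against 3 libraries gave p = 0.1, the smallest it can give. These values rest on few fragments. C1qa values were whole multiples of 1 step within 0.1, and the LPS libraries held 5, 1 and 3 such steps against 10, 16 and 13 in control. The 3 chains summed to 4.94 to 5.39 FPKM in the control libraries and to 0.738 to 1.01 in the LPS libraries, and the macrophage sum given above was also lower in the latter. The macrophage list did not move as a whole. Lyz2 was at 4598 to 4761 FPKM in control and 1786 to 1866 with LPS, whereas Cd14 was at 700 to 709 and then at 2013 to 2078. The part of the macrophage genes in the C1q difference was not tested.

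The receptors for C3a and C5a were the most abundant of the 9 genes in the libraries labelled control. C5ar1 was at 76.7, 83.4 and 79.7 FPKM in C2C12 control, above 95.1% of the 21401 symbols with those at 0 included, and at 48.9, 47.7 and 47.4 FPKM in LPS. Control and LPS did not overlap, but the limma test over 9 libraries did not call the difference of -0.73 (SE 0.837, adjusted p = 0.481). In LPS-MIC-1 it was at 1.24, 0 and 0.0468 FPKM in replicates 1, 2 and 3. C5ar1 fell by 7.48 against LPS (SE 0.837, limma adjusted p = 4.64e-05) and fell by 8.21 against control (limma adjusted p = 2.91e-05). With a group near 0 these sizes depend on the value added to FPKM, and the difference from LPS was -5.20 with 1 and -9.07 with 0.01 added.

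C3ar1 was at 18.7, 18.8 and 17.03 FPKM in C2C12 control, at 57.6, 57.0 and 57.4 with LPS and at 3.26, 1.43 and 1.23 with LPS-MIC-1. The 3 groups did not overlap, and the LPS mean was 3.15-fold the control mean. The difference from control, 1.65 on the log2 scale (SE 0.304, limma adjusted p = 0.00164), missed the threshold. C3ar1 fell by 4.92 between LPS and LPS-MIC-1 (SE 0.304, limma adjusted p = 1.07e-06) and fell by 3.27 against control (limma adjusted p = 1.62e-05). Replicate 1 of LPS-MIC-1 was the highest of its group for C3ar1 and C5ar1 as well as for the macrophage sum. Without that library, LPS against control gave an adjusted p of 1.46e-06 for C3ar1, which was then called higher, and of 0.00192 for C5ar1 (limma), and the LPS-MIC-1 calls against LPS were kept at -5.33 and -8.63 on the log2 scale.

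The C1 inhibitor ran opposite to the receptors. Serping1 was listed at 0 in all C2C12 control libraries and at 0, 0.0360 and 0.0358 FPKM in LPS, and was at 11.8, 11.2 and 16.2 FPKM in LPS-MIC-1. Every LPS-MIC-1 library was above every control and LPS library. No p is given, because Serping1 entered even the fit without a filter only through the LPS-MIC-1 group. Of the proteases it blocks, C1s was at 0.0366 FPKM or less in control and LPS libraries and at 17.6 to 24.8 with LPS-MIC-1. C1ra was present in all groups, at 7.05 to 7.39 FPKM in control, 2.28 to 2.46 with LPS and 17.7 to 24.8 with LPS-MIC-1. It was called lower with LPS than in control (-1.56 on the log2 scale, limma adjusted p = 1.3e-05). C1ra rose 9.13-fold from LPS to LPS-MIC-1 (3.13 on the log2 scale, limma adjusted p = 8.3e-08) and 3.02-fold against control. Myogenic and fibroblast genes moved in the same libraries: the sum of 8 fibroblast genes, led by Col3a1 and Dcn, was 0.0245 to 1.97 FPKM in control and LPS and 449 to 546 in LPS-MIC-1. Their part in the Serping1 difference was not tested. C4b stayed at 0.152 FPKM or less in every C2C12 library, and because C4a is a near-identical copy, its reads are uncertain.

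Counted over the 6 complement genes tested, LPS against control in the C2C12 table gave 1 called higher (Cfb), where 10.9% of all genes tested were called higher, and 1 called lower (C1qc), where 10.0% were. For LPS-MIC-1 against LPS, 1 was called higher (Serping1) against 24.3% of all genes, and 4 were called lower (C1qc, Cfb, C3ar1 and C5ar1) against 25.6%. For LPS-MIC-1 against control, 1 was called higher (Serping1) against 21.1%, and 3 were called lower (C1qc, C3ar1 and C5ar1) against 22.1%. Leaving out C1qc and Serping1, which 1 group admitted, the calls over the other 4 genes were 1 higher and 0 lower, 0 higher and 3 lower, and 0 higher and 2 lower in these comparisons. The counts are a description and are no evidence about the genes as a group. The comparisons of LPS-MIC-1 with LPS and of LPS with control share the LPS libraries.

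**Figure D2:**
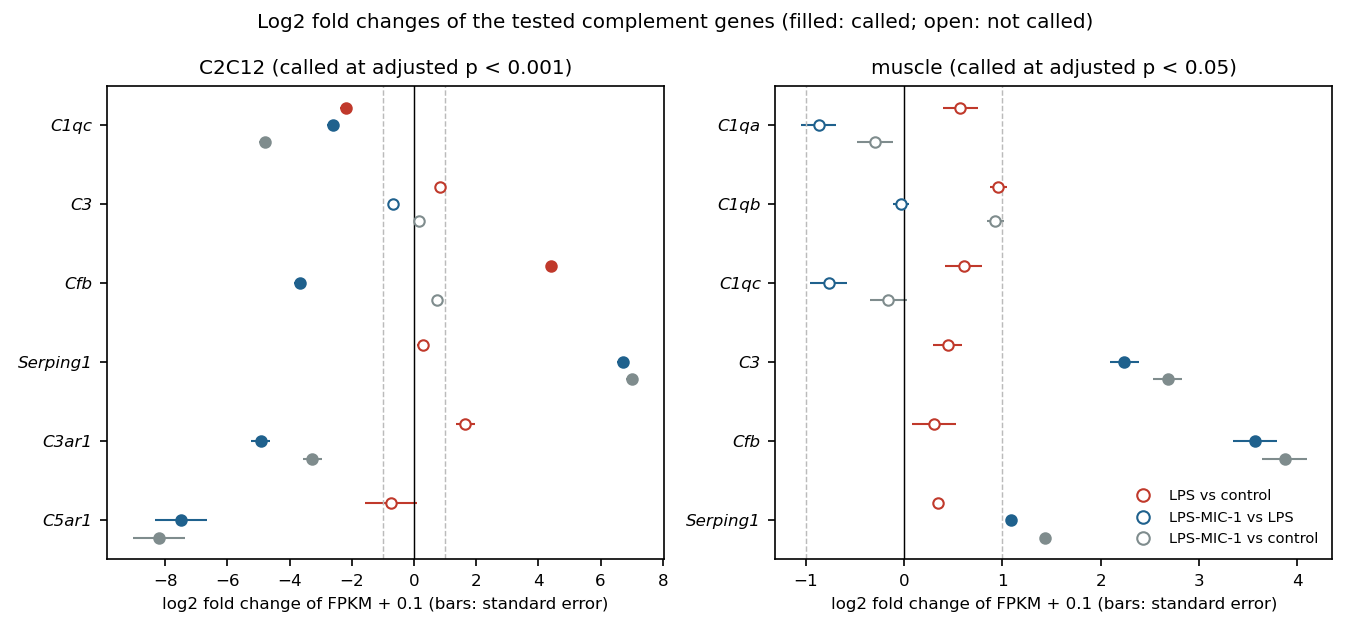
Log2 fold changes of FPKM + 0.1 with their standard errors for the 6 complement genes tested in the C2C12 table (left) and the 6 tested in muscle (right), with filled points called and open points not called. Dashed lines mark a log2 fold change of 1 in either direction. C1qc, Serping1 and C5ar1 have a group at or near 0 in C2C12, so their size there depends on the added 0.1. Cfb in LPS-MIC-1 against LPS lies at -3.68 in C2C12 and at 3.57 in muscle.

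The muscle libraries carried their labelled tissue. The sum of 12 muscle fibre genes, led by Acta1 and Ckm, was 208350 to 213694 FPKM in control, 200351 to 204338 with LPS and 159489 to 173200 with LPS-MIC-1. The median of the list went the other way, at 11616 to 11793 with LPS and 13418 to 14229 with LPS-MIC-1, so the list did not move as a whole. Acta1 was at 51785 to 54603 and then at 34109 to 39434, whereas Tnnt3 was at 10273 to 10762 and then at 14078 to 14499. In muscle, LPS alone left the 6 tested complement genes within the fold threshold, and C1q, not C3 or factor B, showed the larger differences. C1qb was at 3.87, 3.91 and 3.30 FPKM in control muscle and at 7.47, 6.86 and 7.42 in LPS muscle. Every LPS library was above every control library, the ratio of means was 1.96, and the log2 difference of 0.96 (SE 0.0849, limma adjusted p = 0.000251) was just under the fold threshold.

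C1qa was at 4.62, 8.35 and 6.85 FPKM in control muscle, at 9.90, 9.21 and 9.67 with LPS and at 5.28, 4.99 and 5.33 with LPS-MIC-1. C1qc was at 4.98, 6.19 and 3.46 FPKM in control, at 6.72, 7.62 and 7.52 with LPS and at 3.74, 4.46 and 4.54 with LPS-MIC-1. For both chains the LPS libraries were above all others and the LPS-MIC-1 libraries lay within the spread of control. The LPS differences from control were 0.57 for C1qa (limma adjusted p = 0.0699) and 0.61 for C1qc (limma adjusted p = 0.0672). LPS-MIC-1 against LPS differed by -0.87 for C1qa (SE 0.181, limma adjusted p = 0.00348) and by -0.77 for C1qc (SE 0.189, limma adjusted p = 0.00837), again under the fold threshold.

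C1qb did not follow the other 2 chains in LPS-MIC-1 muscle. It was at 6.90, 7.61 and 6.79 FPKM there, overlapping the LPS libraries, with a log2 difference of -0.03 from LPS (SE 0.0849, limma adjusted p = 0.78) and of 0.93 from control (SE 0.0849, limma adjusted p = 2.95e-05). The ratio of C1qb to C1qa was 0.836, 0.469 and 0.482 in control, 0.754, 0.745 and 0.767 with LPS and 1.31, 1.53 and 1.27 with LPS-MIC-1. The LPS-MIC-1 ratios were above all 6 others, with an exact permutation p of 0.1 against either group, the smallest that 3 against 3 libraries can give. The ratio of C1qc to C1qa overlapped between LPS (0.678 to 0.827) and LPS-MIC-1 (0.707 to 0.894). Both ratios were looked at after the values were seen. In the mouse genome C1qb, C1qc and C1qa are adjacent coding genes in that order, by the RefSeq annotation of GRCm38.

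**Figure D3:**
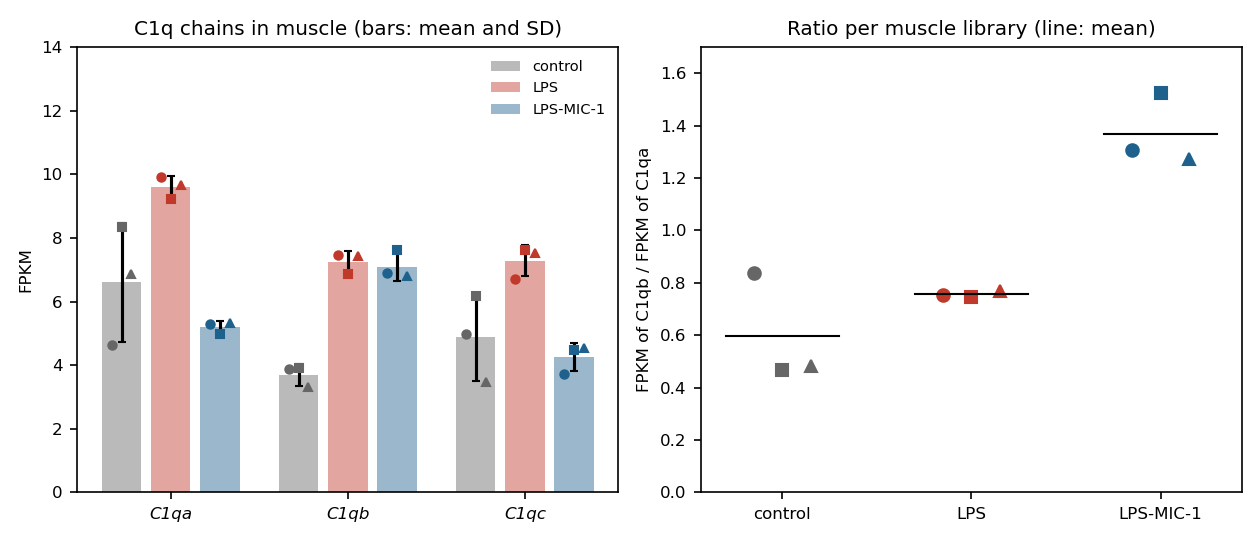
Left, FPKM of the 3 C1q chains in the muscle groups, with bars for the mean and SD of 3 libraries and points for the libraries. Right, the ratio of C1qb to C1qa FPKM in each muscle library, with a line at the mean, 0.596 in control, 0.756 with LPS and 1.37 with LPS-MIC-1.

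C3 and factor B were highest in LPS-MIC-1 muscle. C3 was at 1.39, 1.19 and 1.58 FPKM in control, at 2.00, 2.23 and 1.56 with LPS and at 9.82, 9.23 and 9.19 with LPS-MIC-1. Control and LPS overlapped (0.44, limma adjusted p = 0.0805), while every LPS-MIC-1 library lay far above both. C3 rose 4.88-fold from LPS to LPS-MIC-1 (2.24 on the log2 scale, SE 0.146, limma adjusted p = 4.04e-06) and 6.78-fold against control (limma adjusted p = 1.33e-06).

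Cfb was at 0.399, 0.283 and 0.544 FPKM in control muscle, at 0.574, 0.547 and 0.428 with LPS and at 7.82, 6.38 and 7.43 with LPS-MIC-1. As for C3, control and LPS overlapped (0.30, limma adjusted p = 0.492 without a filter). Cfb rose 14-fold from LPS to LPS-MIC-1 (3.57 on the log2 scale, limma adjusted p = 4.86e-06 without a filter) and 17.6-fold against control (limma adjusted p = 2.85e-06 without a filter). The control and LPS values were whole multiples, 10 to 20, of 1 smallest step. C2, the classical pathway counterpart of factor B and its neighbour in the genome, was under the filter at 0.0898 to 0.242 FPKM in control and LPS muscle and at 0.565 to 0.912 in LPS-MIC-1.

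Serping1 was the most abundant of the 9 genes in muscle. It was at 15.6, 14.7 and 14.8 FPKM in control, at 18.4, 19.6 and 19.3 with LPS and at 43.0, 39.6 and 39.5 with LPS-MIC-1. The 3 groups did not overlap. LPS against control differed by 0.34 (SE 0.0495, limma adjusted p = 0.0026), under the fold threshold, and Serping1 rose 2.13-fold from LPS to LPS-MIC-1 (1.09 on the log2 scale, SE 0.0495, limma adjusted p = 4.69e-07) and 2.71-fold against control (limma adjusted p = 8.36e-08). The rise over LPS lay at the edge of the threshold and was 0.99, not called, after quantile normalization.

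C4b, which carries the classical pathway on to C3, was under the filter in muscle at 0.280, 0.237 and 0.324 FPKM in control, 0.438, 0.283 and 0.393 with LPS and 1.23, 1.46 and 1.22 with LPS-MIC-1. The LPS-MIC-1 libraries were above all others, with an exact permutation p of 0.1, the smallest possible. Without the filter C4b was called higher against LPS (1.59, limma adjusted p = 0.000418) and control (1.89, limma adjusted p = 0.000148). Its near-identical copy C4a was at 0.0425 FPKM or less in all muscle libraries, and reads of the pair can be divided between them.

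The receptors were scarce in muscle. C3ar1 was at 0.125, 0.0178 and 0.0719 FPKM in control, 0.216, 0.163 and 0.161 with LPS and 0.228, 0.136 and 0.418 with LPS-MIC-1. C5ar1 was at 0.288, 0.510 and 0.129 FPKM in control, 0.355, 0.162 and 0.449 with LPS and 0.504, 0.395 and 1.59 with LPS-MIC-1. LPS-MIC-1 overlapped LPS for both receptors, and replicate 3 of LPS-MIC-1 was the highest library for both. That library also stood apart in the macrophage sum, led in muscle by Lyz2 and Fcer1g, with 195 FPKM against 36.7 and 34.6 in the other two, 24.9 to 28.0 in LPS and 17.7 to 21.7 in control. The list did not move as a whole between LPS and LPS-MIC-1. Fcer1g was at 6.50 to 7.95 and then at 15.5 to 26.0 FPKM. Mrc1 fell from 0.621 to 0.677 with LPS to 0.206 to 0.339, and Cd163 from 0.779 to 0.946 to 0.393 to 0.495. For the 6 tested genes replicate 3 did not stand apart, as for C1qa at 5.33 FPKM against 5.28 and 4.99 in the other two.

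Some markers of other sources were higher in the LPS-MIC-1 muscle group. The sum of 9 neutrophil genes, led by S100a8 and Cxcr2, was 1.73 to 2.74 FPKM in control, 1.76 to 2.02 with LPS and 14.4 to 19.9 with LPS-MIC-1, with 3 of them at 0 in all LPS libraries. S100a8 was at 0 to 0.740 FPKM with LPS and 7.245 to 7.474 with LPS-MIC-1, whereas Cxcr2 overlapped, at 1.06 to 1.33 and 1.11 to 1.78. The sum of 11 liver genes, led by Trf and Apoa1, was 3.50 to 3.97 in control, 5.70 to 6.33 with LPS and 9.60 to 13.9 with LPS-MIC-1. Of these, 7 were at 0 in all LPS libraries and none in all LPS-MIC-1 libraries. The liver protein gene Alb was at 2.60, 2.88 and 2.31 FPKM in LPS-MIC-1 against 0, 0.0394 and 0 in LPS. Apoa1 went the other way, from 2.96 to 3.82 FPKM with LPS to 0.523 to 1.55 with LPS-MIC-1. Trf overlapped, at 1.42 to 2.23 and 2.16 to 2.44, so the liver list did not move as a whole. The sum of 10 intestinal genes, led by Lgals4 and Krt8, was 4.98 to 5.77 in control, 6.32 to 6.62 with LPS and 17.9 to 19.8 with LPS-MIC-1. Lgals4 carried that sum, at 4.33 to 4.54 FPKM with LPS and 16.98 to 19.1 with LPS-MIC-1, whereas Krt8 was at 0.596, 0.599 and 0.547 and then at 0.492, 0.216 and 0.368, so the list did not move as a whole.

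Marker sums of other cell types of muscle differed between the groups as well. The myogenic sum, led here by Actc1 and Des, was 4539 to 4600 FPKM in control, 5775 to 5866 with LPS and 2920 to 3177 with LPS-MIC-1. Actc1 carried the difference between LPS and LPS-MIC-1, at 4001 to 4106 and 1087 to 1203 FPKM. Des was at 1586 to 1597 and then at 1714 to 1839. The median of the list overlapped, at 5.76 to 6.03 with LPS and 5.41 to 6.61 with LPS-MIC-1. The sum of 8 endothelial genes, led by Egfl7 and Cdh5, was 122 to 124 in control, 79.2 to 83.1 with LPS and 77.5 to 84.1 with LPS-MIC-1. The 8 fibroblast genes, led by Dcn and Col3a1, summed to 130 to 133 with LPS and 135 to 154 with LPS-MIC-1, but Dcn was higher in the latter and their median level was lower, 9.22 to 9.40 with LPS and 4.46 to 5.06 with LPS-MIC-1. The sum of 7 adipose genes, led by Fabp4 and Cfd, was 288 to 294 in control, 221 to 244 with LPS and 324 to 352 with LPS-MIC-1. Fabp4 carried that sum, at 217.8 to 239.1 FPKM with LPS and 312.5 to 340.7 with LPS-MIC-1. Cfd, at 1.79 to 5.20 and 5.83 to 9.83, is also one of the other complement genes. Adipoq overlapped between these groups, at 0.212 to 0.641 and 0.6335 to 0.764, as did Plin1, at 0.0439 to 0.132 and 0 to 0.0824. The part of these markers in the C3, Cfb and Serping1 differences was not tested. Without replicate 3 of LPS-MIC-1 the rises over LPS were 2.26 for C3 (limma adjusted p = 4.25e-05), 3.55 for Cfb and 1.11 for Serping1 (limma adjusted p = 4.4e-06).

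Counted over the 6 complement genes tested in muscle, LPS against control gave 0 called higher, where 0.654% of all genes tested were, and 0 called lower, where 0.591% were, although limma gave 5 of the 6 an unadjusted p under 0.05 and no other tool was run. For LPS-MIC-1 against LPS, 3 were called higher (C3, Cfb and Serping1) against 9.67% of all genes, and 0 lower against 5.44%, with 5 of 6 at an unadjusted p under 0.05. For LPS-MIC-1 against control, the calls were again 3 higher (C3, Cfb and Serping1) against 9.33%, and 0 lower against 6.12%, with 4 of 6 at an unadjusted p under 0.05. The percentages are shares of genes called. The share of all genes at an unadjusted p under 0.05 was not counted, so the counts at that level are no evidence about the genes as a group. Leaving out Cfb, which the LPS-MIC-1 group admitted, 2 of the other 5 genes were called higher in LPS-MIC-1 against LPS and 2 against control.

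Of 51 other complement symbols listed, 42 were found in each table, and 13 passed the filter in C2C12 and 14 in muscle. In the C2C12 table, LPS against control gave 2 called higher and 2 lower, beside 10.9% and 10.0% of all genes. For LPS-MIC-1 against LPS there were 4 higher and 5 lower, beside 24.3% and 25.6%, and for LPS-MIC-1 against control 3 higher and 4 lower, beside 21.1% and 22.1%. In muscle the counts were 0 and 0 for LPS against control, beside 0.654% and 0.591%. There 5 of the 14 had an unadjusted p under 0.05 by limma, but the share of all genes at that level was not counted. The counts were 1 and 0 for LPS-MIC-1 against LPS, beside 9.67% and 5.44%. They were 2 and 1 for LPS-MIC-1 against control, beside 9.33% and 6.12%. Of those tested, 4 in C2C12 (C1s, Cd55, Clu and Gpr77) and 1 in muscle (Masp2) had a mean above 1 FPKM in 1 group alone, and no p is given for them. Without those 4, the calls over the other 9 genes in C2C12 were 1 higher and 2 lower for LPS against control. They were 2 higher and 4 lower for LPS-MIC-1 against LPS, and 1 higher and 4 lower for LPS-MIC-1 against control. Leaving out Masp2 changed no count in muscle.

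Among the other components and regulators of the C2C12 table, properdin (Cfp), which stabilises the alternative convertase, fell from 65.8 to 70.0 FPKM in LPS to 1.93 to 8.16 in LPS-MIC-1 (limma adjusted p = 5.87e-05). Fcna, a ficolin of the lectin pathway, fell from 7.13 to 3.12 FPKM in the mean between the same groups (limma adjusted p = 1.87e-05). Clusterin, Clu, an extracellular chaperone that inhibits the terminal complex, had means of 0.670 FPKM in control, 9.17 with LPS and 0.202 with LPS-MIC-1.

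Among the membrane regulators and receptors, Cd59a, an inhibitor of the membrane attack complex, rose with LPS from 1.94 to 6.01 FPKM (limma adjusted p = 9.26e-05). Cd55, which speeds the decay of convertases, was listed at 0 in all LPS libraries and was at 5.84 to 9.00 FPKM in LPS-MIC-1. Both chains of complement receptor 3 fell between LPS and LPS-MIC-1, Itgam from 149 to 1.71 FPKM (limma adjusted p = 7.94e-05) and Itgb2 from 88.6 to 2.05 FPKM (limma adjusted p = 4.86e-06), as C3ar1 and C5ar1 did. C1qbp, a mitochondrial protein first found to bind C1q, was at 304 FPKM in control, 122 with LPS and 302 with LPS-MIC-1 (limma adjusted p = 1.39e-06 for LPS-MIC-1 against LPS).

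In muscle, C1ra was the other complement gene called for LPS-MIC-1 against LPS. It was at 1.97, 1.702 and 1.64 FPKM in control, 2.45, 1.99 and 2.17 with LPS and 7.80, 7.20 and 6.93 with LPS-MIC-1. C1ra rose 3.32-fold over LPS (1.69 on the log2 scale, SE 0.109, limma adjusted p = 3.78e-06). Cfd, the protease that activates factor B and a fat cell product, was called higher against control (2.15 to 8.43 FPKM, limma adjusted p = 0.00907), and C8g of the terminal pathway was called lower (1.86 to 0.827 FPKM, limma adjusted p = 0.0485).

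**Figure D4:**
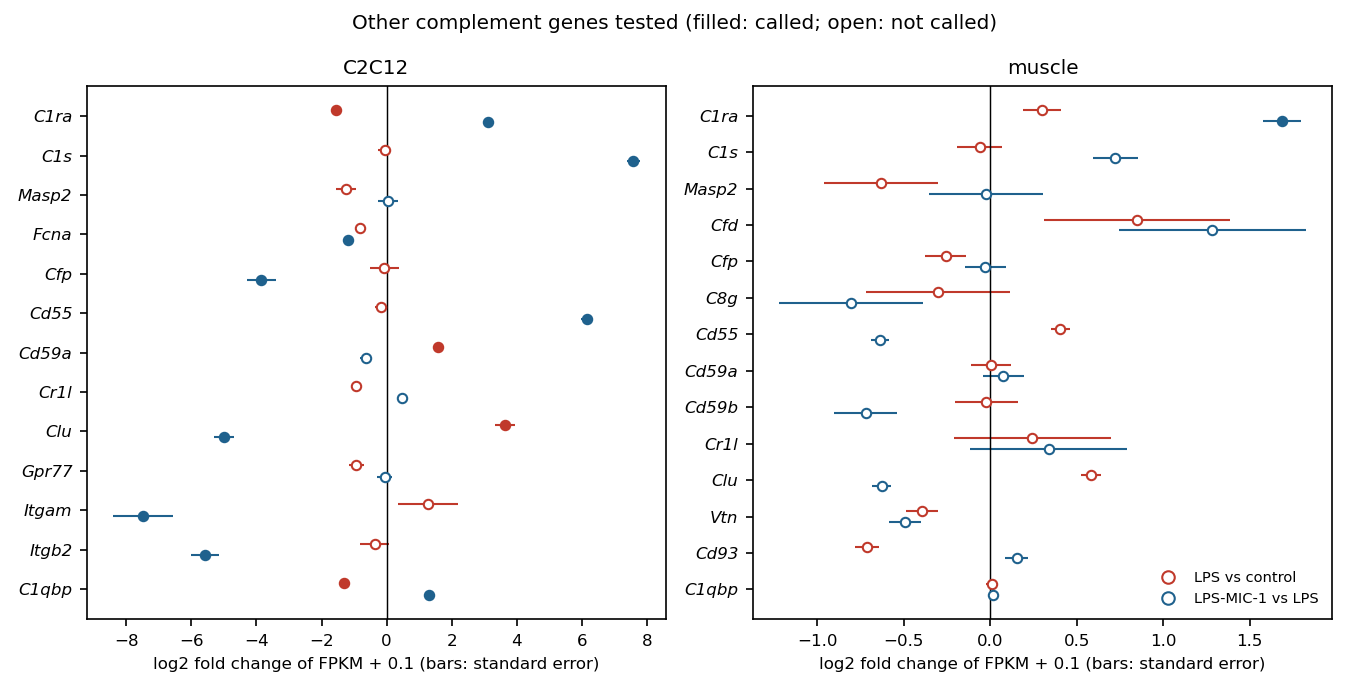
Log2 fold changes of FPKM + 0.1 with standard errors for the 13 other complement genes tested in the C2C12 table (left) and the 14 in muscle (right), for LPS against control and LPS-MIC-1 against LPS, with filled points called. C1ra is called higher in LPS-MIC-1 than in LPS in both panels, at 3.13 and 1.69, and it is the filled point of the muscle panel.

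The genes whose pattern over 9 libraries was most like C5ar1 in the C2C12 table were Icam1, Raet1c and Irf5, with Pearson correlations of 0.9993, 0.9992 and 0.9990, among 1037 genes above 0.95. Those most like Serping1 were Ngfr, Ncs1 and Scrn1 (0.9994, 0.9991 and 0.9991), among 1420 genes above 0.95. Most like C1qa were Pex10, Setmar and Slc37a1 (0.9845, 0.9787 and 0.9775), and most like C3 were Gm5483, Bfar and Gbp5 (0.9909, 0.9908 and 0.9905).

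In muscle, C3 was most like Ddx24, Agpat9 and Hoga1 (0.9971, 0.9967 and 0.9967), among 786 genes above 0.95, and Serping1 was most like Tbk1, Vldlr and Hspb7 (0.9987, 0.9979 and 0.9978), among 744. C1qa was most like Sqrdl, Lrfn4 and Ndufab1 (0.9578, 0.9498 and 0.9368), with 1 gene above 0.95, and C5ar1 was most like Lin7c, Vps26a and Lrba (0.9340, 0.8927 and 0.8878), with 0 above 0.95. The 9 libraries fall into 3 groups, so these correlations follow the group means and are a description only.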

How the data were processed

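RNA-seq libraries of 3 replicates per group were analysed, 9 from C2C12 cultures and 9 from gastrocnemius muscle. Per the labels and methods, the authors quantified reads with kallisto on mm9 transcripts and deposited FPKM per gene symbol, 1 table per experiment, normalized separately. Tables of the authors' own comparisons (base means, fold changes, standard errors and p-values) were not used, nor were 9 unnamed columns of per-sample values in the muscle table. Library totals were not given in the sources used here. The spacing of low FPKM gave relative depths of 0.465 (C2C12 LPS-MIC-1 replicate 3) to 1.02 in C2C12 and 0.988 to 1.11 in muscle. The recovery of whole reads was not attempted for all genes, since FPKM steps depend on transcript length.

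Genes with a mean above 1 FPKM were analyzed by limma 3.58.1 in R 4.3.3 on log2(FPKM + 0.1), with group means over the 9 libraries of an experiment, empirical Bayes with a trend and Benjamini-Hochberg adjustment over all genes tested. Calls needed an absolute log2 fold change above 1 and an adjusted p under 0.001 (C2C12) or 0.05 (muscle). The study states the C2C12 thresholds for its counts of genes in cells. For muscle it states a p under 0.05, not said to be adjusted, for its counts. An adjusted p under 0.05 is stated there for the muscle genes it clustered. Fold changes on this scale understate changes of low genes. The fit was tested on simulated data: in LPS against control it recovered 29.9%, 80.6% and 87.9% of genes changed 2, 4 and 8-fold in C2C12 (10877 genes) and 47.8%, 97% and 98.5% in muscle (9475 genes). Wrong calls were 0 in C2C12 and 5 in muscle. Only genes with a control mean log2(FPKM + 0.1) above 1 were changed, so the recovery of lower genes was not tested. A 2-fold change lies on the call threshold itself. A 2-sided exact permutation test of 3 against 3 libraries was used for single values. The p-values measure the spread between these libraries, since the labels do not say which cultures or animals they came from.

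The 9 genes, the 51 other complement symbols and the marker lists were chosen with earlier results of these data known. Named were the 9 genes, every other complement gene called in an experiment (up to 12), the 3 genes most like each of 4 members and the 2 most abundant genes of each marker list. A further complement gene that had been listed is not reported here and is left out of the counts. The lists not given with the results were all of C2C12, as sums in FPKM: muscle fibre (Mylpf, Acta1) 10.6 to 39.98 in control and LPS and 704 to 996 in LPS-MIC-1, neutrophil (S100a8, Cxcr2) 4.69 to 15.6, endothelial (Egfl7, Vwf) 0.682 to 6.74, liver (Trf, Apoa1) 0.787 to 4.68, adipose (Fabp4, Adipoq) 1.26 to 4.31 outside LPS and 63.5 to 74.96 in LPS, and intestine (Lgals4, Krt8) 0.328 to 11.6. Alternatives were another pseudocount, filter, scaling, moderation or set of libraries, a replicate block, a looser threshold in C2C12 (chosen after seeing the data) and leaving out each library. Same-numbered libraries did not deviate together (correlations of -0.0757 to 0.0823). Gene order came from RefSeq GRCm38, and promoter motifs were not analysed here.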

Additional observations from a re-analysis of the deposited data

Results flagged for a closer look

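For some complement genes the groups of 1 contrast lay in opposite order in the C2C12 table and in muscle, with every library of one group above or below every library of the other. Of these, Cfb for LPS-MIC-1 against LPS was the 1 gene called in both tables. The others were not called or not tested in at least 1 table. The share of all genes in such opposite order was not counted, so the list is a description only. The difference between the experiments was not tested, because the tables were normalized separately, and the libraries labelled C2C12 control and LPS carried macrophage and not myogenic genes. Values are mean FPKM of 3 libraries.

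For LPS against control, the 3 C1q chains were lower in C2C12 and higher in muscle. C1qa was at 0.199 with LPS and 0.720 in control in C2C12, and at 9.59 and 6.61 in muscle. C1qb was at 0.152 and 1.695 in C2C12, and at 7.25 and 3.69 in muscle. C1qc was at 0.522 and 2.70 in C2C12, and at 7.28 and 4.87 in muscle.

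For LPS-MIC-1 against LPS, C3 and Cfb were lower in C2C12 and higher in muscle. C3 was at 2.58 in LPS-MIC-1 and 4.10 in LPS in C2C12, and at 9.42 and 1.93 in muscle. Cfb was at 2.22 and 29.0 in C2C12, and at 7.21 and 0.517 in muscle.

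For LPS-MIC-1 against control, C1qb, C4b and C3ar1 were lower in C2C12 and higher in muscle. C1qb was at 0.0253 in LPS-MIC-1 and 1.695 in control in C2C12, and at 7.10 and 3.69 in muscle. C4b was at 0.0177 and 0.107 in C2C12, and at 1.30 and 0.280 in muscle. C3ar1 was at 1.97 and 18.2 in C2C12, and at 0.261 and 0.0715 in muscle.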

How the results depend on the processing

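Of 36 comparisons of a complement gene tested by limma, 17 were called, 15 of these were called under every alternative that tested the gene, and 0 called comparisons reversed direction. The 17 include the calls of C1qc and Serping1 in C2C12 and of Cfb in muscle, which 1 group admitted. Alternatives that dropped a gene were not counted against it, and C1qc was tested under 14 of them but Cfb in C2C12 under 18. C1qc in muscle for LPS-MIC-1 against control, which was not called, went from -0.16 to 0.03 without replicate 2 of control. In C2C12, LPS against control gave 2 genes called higher (Cfb and C3ar1) in place of 1 with a pseudocount of 1, with quantile normalization, with the 6 libraries compared alone and at an adjusted p under 0.05, and 1 to 2 when a library was left out, with 2 without replicate 1 or replicate 3 of LPS-MIC-1. Over all 10877 genes, the first 3 of these settings called 1113, 1101 and 1353 higher. Counts over all genes at the looser threshold or with a library left out were not taken. Those called lower were 2 without a filter, 0 at a mean FPKM over 5 and 0 to 1 when a library was left out, with 0 without replicate 1, 2 or 3 of control, since C1qc then fell under the filter. Over all genes, 1137 of 15296 were called lower without a filter and 868 of 8151 at a mean FPKM over 5. At a mean FPKM over 5, those called higher in LPS-MIC-1 were 0 against LPS and 0 against control, and without a filter 5 were called lower against control. Over all genes these counts were 1867 and 1533 of 8151, and 2583 of 15296. In muscle, a mean FPKM over 5 left 1 called higher in LPS-MIC-1 against LPS and 1 against control, quantile normalization gave 1 lower against LPS (C1qa, -1.02), and no filter gave 5 higher against control. Over all genes these counts were 452 and 462 of 5464, 667 of 9475, and 1325 of 15434. Quantile normalization lost the Serping1 call against LPS (0.99) and moved the median of all muscle genes to -0.12 against LPS and -0.10 against control. The replicate block changed no count of called complement genes (3 higher in muscle for LPS-MIC-1 against LPS with the block), and replicate numbers only name the libraries. Depth limits C1qa, C1qb and C4b in C2C12 and both receptors in muscle, whose values rest on few fragments.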
